A study of Fukomys damarensis and Heterocephalus glaber and Mus musculus with 160 samples.

Results

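Cacna1c, Ryr2 and Atp2a2, 3 genes whose products move calcium in the heart muscle cell, were followed across histone marks in mouse liver and heart. The members were chosen by position: a peak counted when it overlapped the GRCm38 window of Cacna1c (ENSMUSG00000051331, chr6:118580000-119205000), Ryr2 (ENSMUSG00000021313, chr13:11550000-12115000) or Atp2a2 (ENSMUSG00000029467, chr5:122445000-122510000). Of the 1711588 peaks in the 29 mouse histone lists, 1709 lay in these 3 windows, of which 1092 were in the Cacna1c window, 405 in the Ryr2 window and 212 in the Atp2a2 window. The series as a whole held 8953087 peaks in 116 lists. The windows were given by the question and not by the peaks, and they can hold parts of neighbouring genes.

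Each heartbeat begins with calcium entry through the L-type channel, whose pore is the product of Cacna1c. That calcium opens the cardiac ryanodine receptor, the product of Ryr2, which releases the much larger store held in the sarcoplasmic reticulum. The pump SERCA2, the product of Atp2a2, then returns calcium to the store so that the muscle relaxes. Cacna1c and Ryr2 belong to excitable tissues such as heart and brain, whereas Atp2a2 is used by most cells, liver cells included, to fill the endoplasmic reticulum. Of the marks, H3K4me3 is typical of promoters, H3K27ac of active promoters and enhancers, and H3K4me1 of enhancers and promoter flanks.

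All tissue came from wild-type C57BL/6J males, adult at 2 months. The liver libraries were from 4 mice (85920, 85921, 85923 and 85924), each of which gave all 3 marks. The heart had 6 libraries of H3K4me3, 6 of H3K27ac and 5 of H3K4me1, from 12 mice or pools in all, including 1 pool of 3 mice. No mouse gave both tissues. Chromatin was taken from the crosslinked organ, so each value is an average over all its cells, and a mark in fewer cells cannot be told apart from less of the mark per cell. Each library had its own list, called against an input library of unenriched chromatin. The input was from the same mouse in 12 of 12 liver lists and in 4 of 17 heart lists. Some heart lists of a mark shared an input. In H3K4me1 those of 33017, 17_3498 and 17_3500 were called against the input of 17_3498. The input of 75191 served 17_36584 and 73317 in H3K27ac, and 17_36584 and 6839 in H3K4me3. Such lists are not fully independent.

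The lists carry no read numbers, so the depth behind them is unknown, and the number of peaks in a list moves with it. H3K4me3 lists held 18135 to 32785 peaks in heart and 17431 to 19301 in liver. H3K27ac lists held 57663 to 109724 in heart and 56871 to 63479 in liver. H3K4me1 lists held 86486 to 113889 peaks in liver, but in heart they ran from 20521 in the pool to 129914 in mouse 33017. The pool covered 9.28 Mb with H3K4me1 peaks, far below the other lists of the mark, and comparisons on this mark are given with and without it. The list of mouse 33017 carries a tag in its name that the labels do not explain. No 2 lists were identical.

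The value of a library was the percentage of the window covered by its peaks. Heart and liver were compared by a two-sided exact permutation test over libraries, run on every window of the same width along the chromosomes. The p-values were adjusted by the Benjamini-Hochberg method over all of them. The spread between libraries holds that between mice together with that of depth and input. The smallest p the design can give is 0.00476 for H3K4me3 and H3K27ac and 0.00794 for H3K4me1. Fold is the authors' enrichment of a peak over background, and it is only described, since it also depends on depth and on the input.

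The heart windows of Cacna1c and Ryr2 were covered more than the liver windows in all 3 marks by their means, and Atp2a2 in H3K4me3 and H3K27ac but not in H3K4me1. Of the 9 comparisons, 1 passed the adjusted threshold of 0.05, H3K27ac at Ryr2. For that mark 19.1% of all windows as wide as that of Ryr2 passed with heart higher and 23.0% with liver higher, so a call was common. No window anywhere passed for H3K4me3 or H3K4me1 (0.0% in both directions), so for these marks the exact test separated the members from no other window. The plot of coverage by library shows that the tissues did not overlap in 5 of the 9 comparisons. In each of them every heart lay above every liver. In H3K4me3 that held for 7.27% (Cacna1c), 7.44% (Ryr2) and 4.88% (Atp2a2) of windows of the same width. In H3K27ac it held for 20.6% (Cacna1c) and 21.9% (Ryr2), so there it was common.

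**Figure D1:**
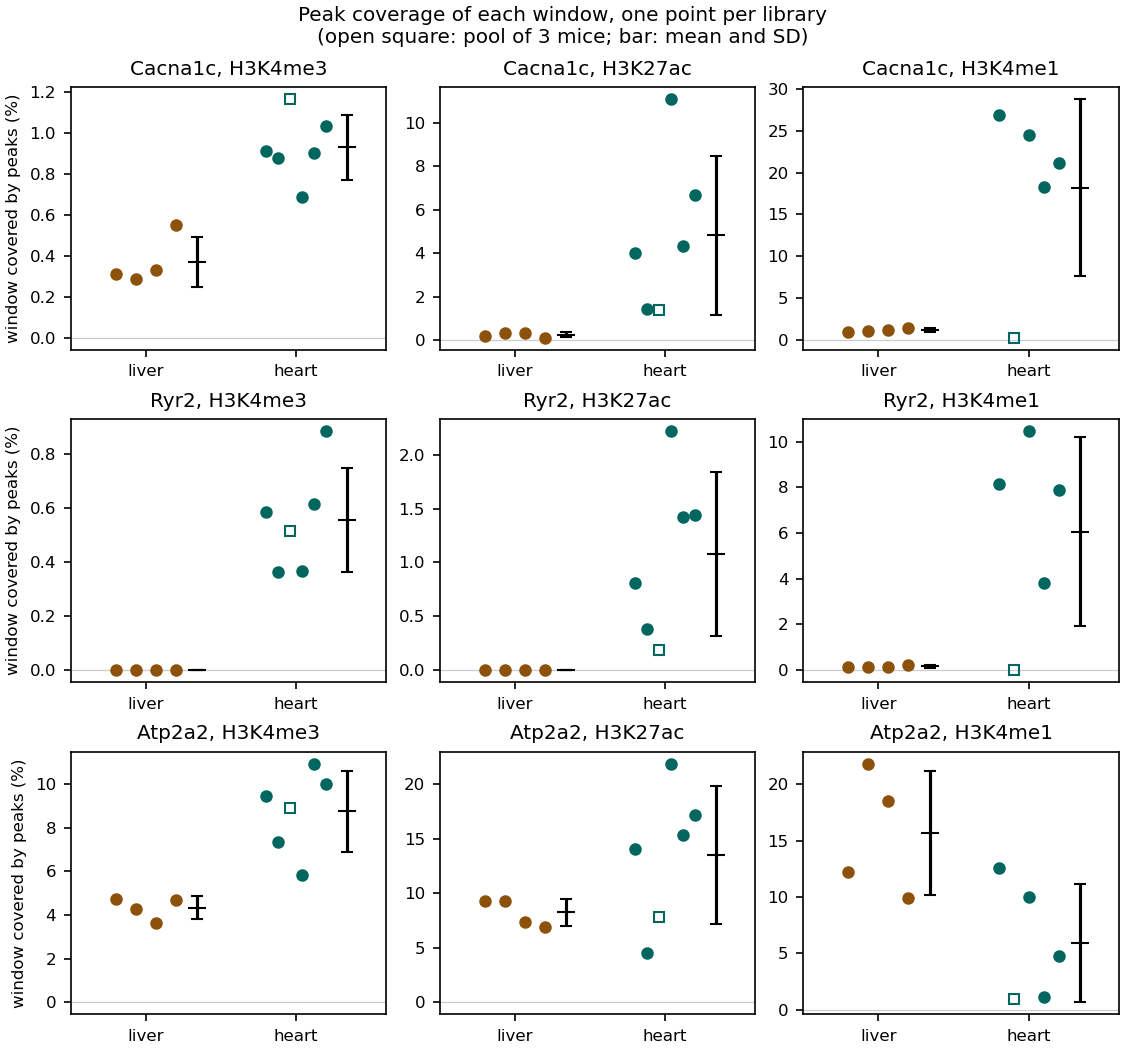
Percentage of each window covered by peaks (vertical axis, a separate scale in each panel) in liver and heart, 1 point per library, with the mean and SD beside the points. Open squares are the pool of 3 mice, which in the H3K4me1 panels lies at or near 0.

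Cacna1c, the entry channel, has the longest of the windows, 625 kb against 565 kb for Ryr2 and 65 kb for Atp2a2. H3K4me3 covered 0.309%, 0.286%, 0.329% and 0.551% of its window in livers 85920, 85921, 85923 and 85924. In the 6 hearts it covered between 0.689% and 1.16%, with a median of 0.907%. Every heart lay above every liver, a pattern found in 7.27% of windows of this width. The means were 0.930% ± 0.160 (SD, n = 6) and 0.369% ± 0.123 (SD, n = 4), a difference of 0.561 percentage points with an adjusted p of 0.162 in the exact permutation test. The raw p of that test was 0.00476, the smallest the design can give. None of the 4045 windows of this width passed and 492 had an unadjusted p under 0.05. With limma on log2 covered bases, 5.91% were called higher in heart, this one among them (adjusted p 0.00210), and 0.791% lower.

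Most of that H3K4me3 in heart sat in 3 sites found in every heart. The site at chr6:119106642-119109392 had peaks in all 10 libraries but was wider in heart, 1874 to 2705 bases with a median of 2153, against 804, 788, 796 and 1736 bases in livers 85920, 85921, 85923 and 85924. Its fold was 9.29 to 55.4 in heart and 7.45 to 12.3 in liver, so the groups overlapped in fold and not in width. The site at chr6:119174823-119176363 was the one with the highest mean fold in heart, and it was shared: 35.1 to 82.3 in heart, and 93.0, 61.3, 97.1 and 106.0 in the same order of livers. Here 3 of 4 livers lay above every heart. No annotation was used, so it is not known which gene's promoter, if any, each of these sites marks. The site at chr6:119193934-119196526 had a peak in 6 of 6 hearts, with a fold of 8.09 to 25.5, and in 0 of 4 livers. It was the only one of the 10 H3K4me3 regions in the window, counting overlapping peaks of all libraries as 1 region, that was in every heart and no liver. Across the genome 1.26% of 53592 such regions had that pattern and 0.334% the opposite one.

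H3K27ac, the mark of active elements, covered 0.190%, 0.348%, 0.326% and 0.106% of the Cacna1c window in the 4 livers in the same order. In heart it covered 1.40% to 11.1%, with a median of 4.17%, and no heart came as low as a liver. The highest heart was mouse 73317, with 120 peaks, and the lowest were the pool with 26 peaks and mouse 17_36584 with 18. The livers had 1 to 4 peaks. The means were 4.83% ± 3.66 (SD, n = 6) and 0.242% ± 0.115 (SD, n = 4), a difference of 4.59 points, and the adjusted p of 0.0615 in the exact permutation test missed the threshold. In this mark 18.5% of windows of the same width passed with heart higher, and 20.6% had every heart above every liver. The difference was smaller in 97.4% of the windows and larger in 91. Taken as covered bases per megabase of the list's own peaks, it passed with an adjusted p of 0.0180 by the same exact test. With limma the adjusted p was 0.000116, and 26.6% of windows were called higher in heart. The exact test also passed on leaving out mouse 17_36584 (adjusted p 0.0414), the pool (0.0419) or mouse 73317 (0.0461). The share of all windows that passed was not counted for these omissions or for the scaled run. These calls therefore do not set the window apart from others.

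Of 118 H3K27ac regions in the Cacna1c window, 112 had a peak in some heart and no liver, 3 in some liver and no heart, and 73 came from 1 library alone. Over the genome 57.6% of H3K27ac regions had a peak in some heart and no liver. Those in every heart and no liver numbered 2, against 3.74% of the genome's 148018 regions. Both lay on H3K4me3 sites. The one with the higher mean fold was chr6:119191320-119198159, around the site without liver H3K4me3, at 11.7 ± 5.74 (SD, n = 6). The other was chr6:119107119-119109220, at 8.39 ± 2.94 (SD, n = 6), on the site chr6:119106642-119109392. That site carried H3K4me3 in both tissues but H3K27ac in heart alone. The region around the shared H3K4me3 site at chr6:119174754-119184093 had H3K27ac in all libraries, with a fold of 11.6 to 20.3 in heart and 5.22 to 12.9 in liver. In liver the peaks there were 604 to 783 bases wide. In heart, H3K27ac in the 30 kb on the higher-coordinate side of that summit covered 10.0% to 60.2% of the sequence, with a median of 36.5%, and in liver 1.37% to 1.78%.

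H3K4me1 gave the broadest pattern at Cacna1c. The mark covered 26.9%, 24.5%, 18.2% and 21.2% of the window in hearts 33017, 17_3498, 17_3501 and 17_3500, and 0.196% in the heart pool. In livers 85920, 85921, 85923 and 85924 it covered 0.935%, 0.985%, 1.09% and 1.44%. The 4 single hearts lay well above the livers and the pool lay below them. Those hearts had 192, 191, 143 and 165 peaks, the pool 4, and the livers 8, 11, 10 and 16.

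The mean difference in H3K4me1 at Cacna1c was 17.1 points, 18.2% ± 10.6 (SD, n = 5) against 1.11% ± 0.228 (SD, n = 4), with an adjusted p of 0.227 in the exact permutation test. With the same number of peaks taken from each list, that of the pool, it was 4.51 points (adjusted p 0.192, exact test). With all peaks used, none of the 3740 other windows of this width had a difference larger than 17.1 points. Leaving out the pool gave 22.7% ± 3.80 (SD, n = 4), a difference of 21.6 points, again larger than in every other window, and an adjusted p of 0.120 in the exact test, at the smallest raw p that 4 against 4 libraries can give (0.0286). Without the pool 13.8% of windows had every heart above every liver, and with it 0.107%. None of the 3741 windows passed by the exact test and 786 had an unadjusted p under 0.05. With limma 2.67% were called higher in heart, this one among them (adjusted p 0.00161), and 8.18% lower. Without the pool limma called 14.6% higher, this one again among them, and 15.5% lower. The library names fall in 2 series, and all livers but only mouse 33017 and the pool among these hearts are of the first. Within it the difference was 12.4 points (exact permutation p 0.333).

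**Figure D2:**
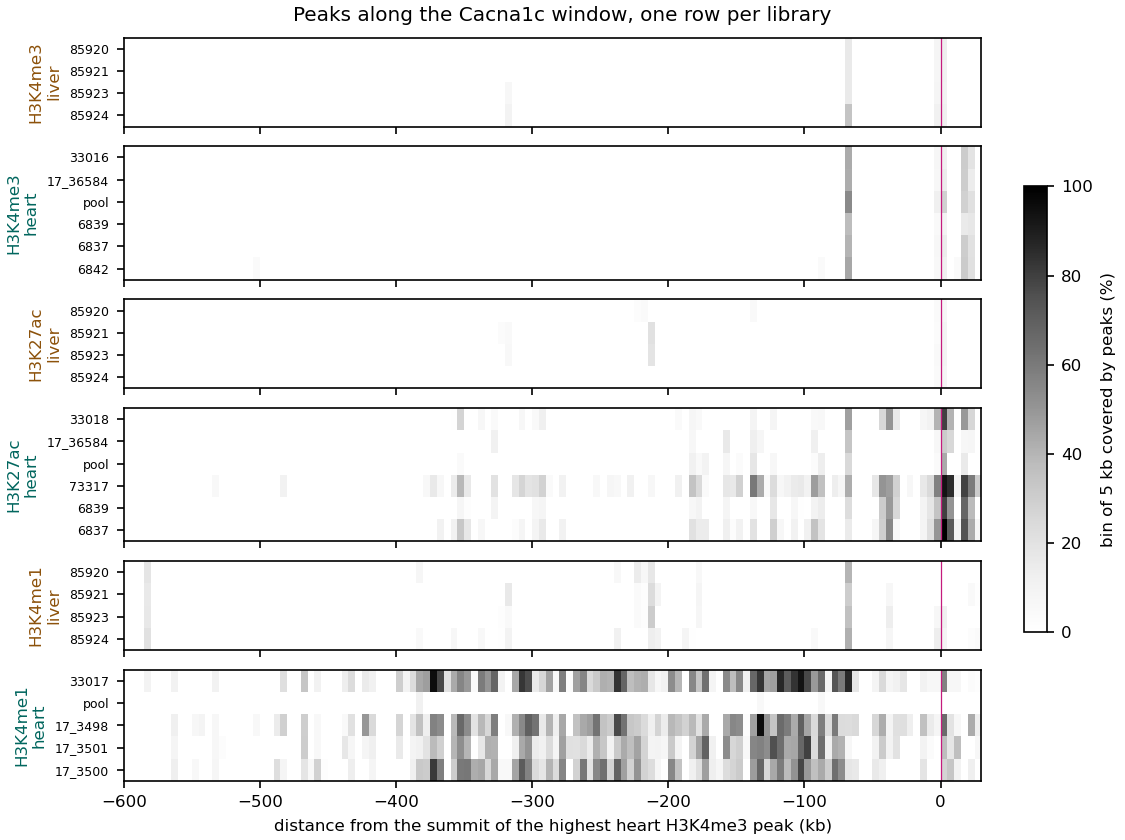
Peaks along the Cacna1c window: each row is a library, the horizontal axis is the distance in kb from the summit of the highest heart H3K4me3 peak (vertical line), and darker bins of 5 kb are covered more. In the bottom panel 4 of 5 hearts show H3K4me1 from about −400 kb to beyond the summit, and the pool and the livers do not.

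The map of the Cacna1c window shows where this H3K4me1 lay. Distances are from the median position, over hearts, of the summit of the highest H3K4me3 peak, and are negative toward lower coordinates. From −200 to −100 kb it covered 0.345% in the lowest heart, which was the pool, 38.6% at the median and 49.5% in the highest, and 0.285% to 0.490% in liver. From −400 to −300 kb the heart median was still 34.0%, and from −500 to −400 kb it was 5.44%. Beyond −500 kb the medians were 1.41% in heart and 0.926% in liver. In the 100 kb next to the summit it was 17.9%, and in the 30 kb past it 14.2%. Without the pool the medians were 39.9% from −200 to −100 kb, 34.7% from −400 to −300 kb and 15.4% past the summit. The mark was thus spread from −400 kb to beyond the summit and was low in the far end of the window.

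The 4 single hearts placed H3K4me1 in similar positions. The Jaccard index of a pair, the bases covered in both divided by those covered in either, was 0.323 to 0.435 in this window, beside 0.314 to 0.430 over the genome. Between heart and liver it was at most 0.0303 in the window and at least 0.161 over the genome, without the pool in both cases. With the pool the pairs of hearts ran from 0.00648 to 0.435. Peaks of some heart covered 42.2% of the window, and peaks of at least 2 hearts covered 27.2%, the same with and without the pool. Of the 194 H3K4me1 regions, 2 were in all 5 hearts and no liver, and 45 were when the pool was left out, beside 0.419% and 3.33% of the regions of the genome (5.73% were in every liver and no single heart). The 2 regions that even the pool shared were chr6:119038126-119048998, 10873 bases long with a mean fold of 7.58 ± 1.66 (SD, n = 5), and chr6:119088170-119090249, with a mean fold of 7.15 ± 3.10 (SD, n = 5).

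Liver had H3K4me1 of its own in the Cacna1c window. The region at chr6:118593155-118594205, near the low end, had a peak in 4 of 4 livers its fold averaging 9.21 ± 3.21 (SD, n = 4), and in 1 of 5 hearts. At the H3K4me3 site chr6:119106642-119109392 all 4 livers had H3K4me1 over 1521 to 2081 bases, and 4 of 5 hearts had it. Where at least 2 hearts carried H3K27ac in the window, over 44478 bases, 49.7% also had H3K4me1 in at least 2 hearts. Of the 169917 bases with heart H3K4me1, 87.0% had neither of the other marks. Among the hearts only the pool gave H3K4me1 together with another mark. The heart shares, here and at the other genes, therefore combine lists of different mice. They were the same without the pool.

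Ryr2, the release channel, differed between the tissues in the presence of peaks. No liver library of H3K4me3 or H3K27ac had a peak in the window, and every heart library of either mark had a peak there. H3K4me3 covered 0.365% to 0.885% of the window in heart, with a median of 0.550% and 1 to 11 peaks. The mean was 0.555% ± 0.193 (SD, n = 6) against 0 in all 4 livers, with an adjusted p of 0.179 in the exact permutation test. Its raw p was again the smallest the design can give, 0.00476. Every heart lay above every liver in 7.44% of windows of this width. None of the 4460 windows passed and 555 had an unadjusted p under 0.05. With limma 5.43% were called higher in heart, this one among them (adjusted p 2.66e-05), and 0.74% lower.

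In every heart but mouse 6842, most of the Ryr2 H3K4me3 lay in 1 site, chr13:12104600-12107061. There the peaks covered 2061 to 2451 bases in heart, with a median of 2204, at a fold of 19.0 to 48.9 with a median of 40.5. Of the 10 H3K4me3 regions in the window it was the only one in every heart, 6 of the others came from 1 library, and none of the 10 had a liver peak. Over the genome 65.8% of H3K4me3 regions had a peak in some heart and no liver, and 1.26% in every heart and no liver. Within a heart list, 20.7% to 51.8% of all H3K4me3 peaks had a higher fold than the Ryr2 site, so it was a mid-ranking peak.

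H3K27ac covered 0.186% to 2.22% of the Ryr2 window in heart, with a median of 1.12%, and 0 in every liver. The highest heart was again mouse 73317, with 20 peaks, and the lowest was the pool, with 4. The difference of 1.08 points (heart SD 0.762, n = 6) passed with an adjusted p of 0.0453 in the exact permutation test. In this mark 793 of 3816 windows had a larger difference, and 21.9% had every heart above every liver. In exact permutation tests of fewer libraries the call was lost on leaving out mouse 33018 (adjusted p 0.106), 6839 (0.0511) or 6837 (0.0573). It was lost too without any of livers 85920 (0.108), 85921 (0.106), 85923 (0.108) and 85924 (0.106). Every liver was 0, so leaving out a liver kept the difference at 1.08 points. The raw p of the exact test then rose from 0.019 to 0.048, as fewer libraries give fewer arrangements. The call was also lost when peaks were counted, 8.67 more in heart with an adjusted p of 0.0567 by the exact test. By that test it was kept at a −log10 q of at least 4 (adjusted p 0.0383) and with equal numbers of peaks per list (0.0395). The same held per megabase of the list's own peaks (0.0255) and with 50 kb added on each side (0.0396). With limma the adjusted p was 0.00031, and 27.6% of windows were called higher in heart. For the other settings that share was not counted.

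All of the 21 H3K27ac regions in the Ryr2 window had a heart peak and no liver peak, as had 57.6% of the genome's H3K27ac regions, and 10 of them came from 1 library. The single region in every heart, a pattern of 3.74% of the genome's regions, was chr13:12104510-12106876, on the H3K4me3 site, with a mean fold of 14.5 ± 8.23 (SD, n = 6) and a range of 6.92 to 28.4. No heart had H3K27ac beyond −200 kb from the summit. From −100 kb to the summit it covered 0.834% to 10.9%, with a median of 5.91%. In the 50 kb past the upper end of the window H3K27ac covered 3.87% to 26.9% in heart and 0 in every liver, and what lies there was not analysed.

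H3K4me1 in the Ryr2 window covered 8.15%, 10.4%, 3.82% and 7.89% in hearts 33017, 17_3498, 17_3501 and 17_3500, and 0 in the pool. In the livers, in the order above, it covered 0.127%, 0.141%, 0.114% and 0.243%. The single hearts had 88, 100, 49 and 85 peaks and the livers 1 or 2 each. The difference was 5.91 points, 6.06% ± 4.15 (SD, n = 5) against 0.156% ± 0.0589 (SD, n = 4), with an adjusted p of 0.232 in the exact permutation test. With equal numbers of peaks taken from each list it was 0.696 points (adjusted p 0.354, exact test). Without the pool it was 7.42 points, 7.58% ± 2.76 (SD, n = 4), with every heart above every liver, as in 12.9% of windows (0.196% with the pool), and an adjusted p of 0.123 in the exact test. With all libraries 40 of 4089 windows had a larger difference and without the pool 51. None passed by the exact test and 838 had an unadjusted p under 0.05. With limma 2.52% were called higher in heart, this one among them (adjusted p 0.000809), and 7.9% lower. Without the pool limma called 14.5% higher, this one again among them, and 14.9% lower. Within the first series of library names the difference was 3.92 points (exact permutation p 0.333).

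**Figure D3:**
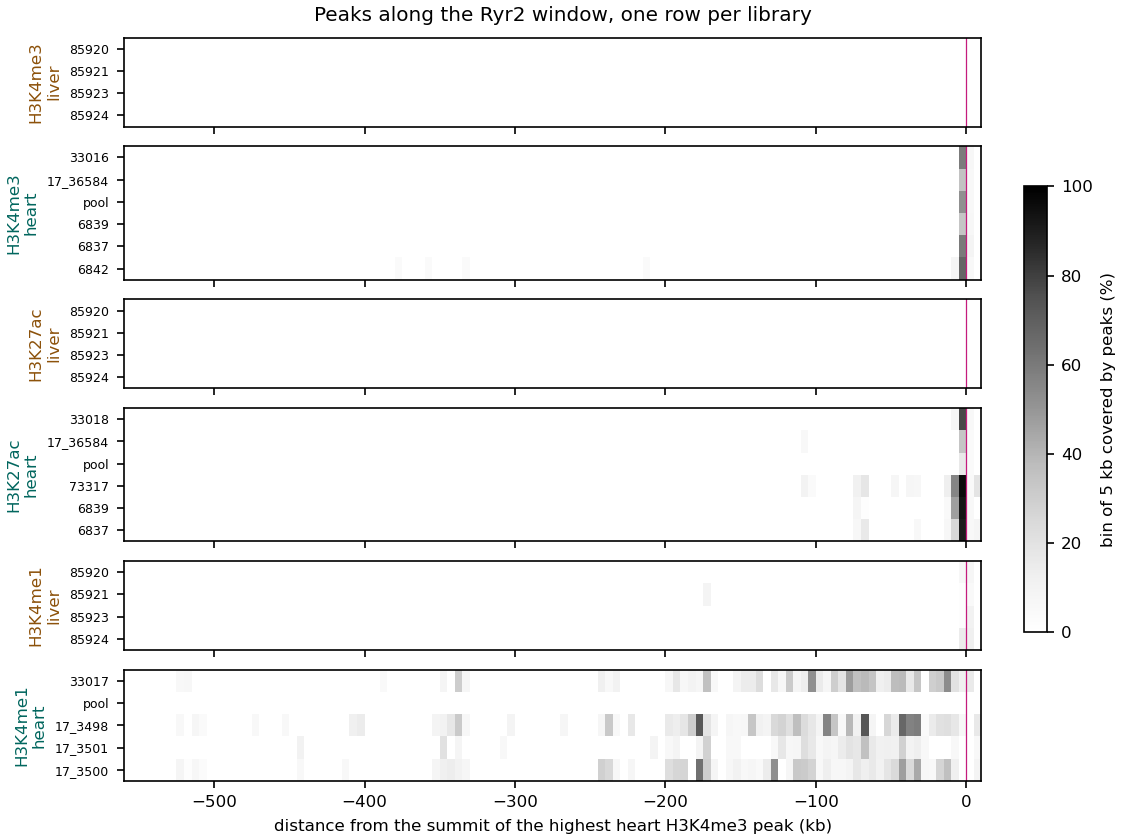
Peaks along the Ryr2 window, drawn as for Cacna1c with bins of 5 kb: heart H3K4me3 and H3K27ac lie mostly close to the summit at 0 kb, and the liver panels of these marks are empty. Heart H3K4me1 is denser from −200 kb to the summit than farther away.

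The map of the Ryr2 window shows that heart H3K4me1 was not even along it. From −100 kb to the summit it covered 17.3% at the median and 27.5% in the highest heart. From −200 to −100 kb these values were 14.1% and 20.3%. From −300 to −200 kb the median was 1.49%, and farther out no bin of 100 kb had a median above 2.60%. Without the pool the medians were 21.9% from −100 kb to the summit, 16.6% from −200 to −100 kb and 2.47% from −300 to −200 kb. The Jaccard index of pairs of single hearts was 0.0951 to 0.234, below its range in the Cacna1c window, and 0 to 0.234 with the pool. Peaks of some heart covered 20.3% of the window and peaks of at least 2 hearts 7.49%, and 86 of 167 regions came from 1 library. None of them was in all 5 hearts, and 12 were in the 4 single hearts and no liver, beside 0.419% and 3.33% of the genome's regions with these patterns.

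At the Ryr2 H3K4me3 site itself the tissues differed the other way in H3K4me1. All 4 livers, which had no H3K4me3 or H3K27ac there, had an H3K4me1 peak, with a fold of 9.51, 4.00, 5.99 and 16.2 in livers 85920, 85921, 85923 and 85924. Of the 5 hearts only mouse 33017 had one, at 6.24. Heart H3K4me1 in the window stood alone, with neither of the other marks, over 98.2% of the bases that at least 2 hearts carried.

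Atp2a2, the pump, was marked in both tissues. H3K4me3 covered 4.74%, 4.27%, 3.61% and 4.71% of its window in livers 85920, 85921, 85923 and 85924, and 5.83% to 10.9% in heart with a median of 9.18%. The means were 8.75% ± 1.87 (SD, n = 6) and 4.33% ± 0.53 (SD, n = 4), a difference of 4.41 points with an adjusted p of 0.189 in the exact permutation test. Every heart lay above every liver, as in 4.88% of windows of this width, and 129 of 21764 windows had a larger difference. None passed and 2434 had an unadjusted p under 0.05. With limma 3.84% were called higher in heart, this one among them (adjusted p 0.00731), and 1.66% lower. In a window wider by 50 kb on each side the difference was 2.16 points (adjusted p 0.433, exact test).

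The Atp2a2 difference in H3K4me3 was one of width at a single site, chr5:122496119-122503361, which had peaks in all 10 libraries. There the peaks covered 3786 to 7113 bases in heart, with a median of 5866, and 3083, 2773, 2349 and 3060 bases in the livers. The fold went the other way in its medians, at 56.5 to 141.5 in heart with a median of 102.6 and 110.0, 132.4, 183.1 and 177.6 in the livers, and the groups overlapped. Close to the summit, within 500 bases, coverage was at least 88.2% in every heart and complete in every liver. From 1 to 5 kb away it was 24.1% to 54.0% in heart and 4.36% to 13.5% in liver. The extra width lay on the lower-coordinate side: the 10 kb there were covered to 28.4% to 57.9% in heart and to 11.5% to 18.7% in liver, and the 8 kb on the other side to 11.7% to 17.9% and 14.7% to 15.5%.

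**Figure D4:**
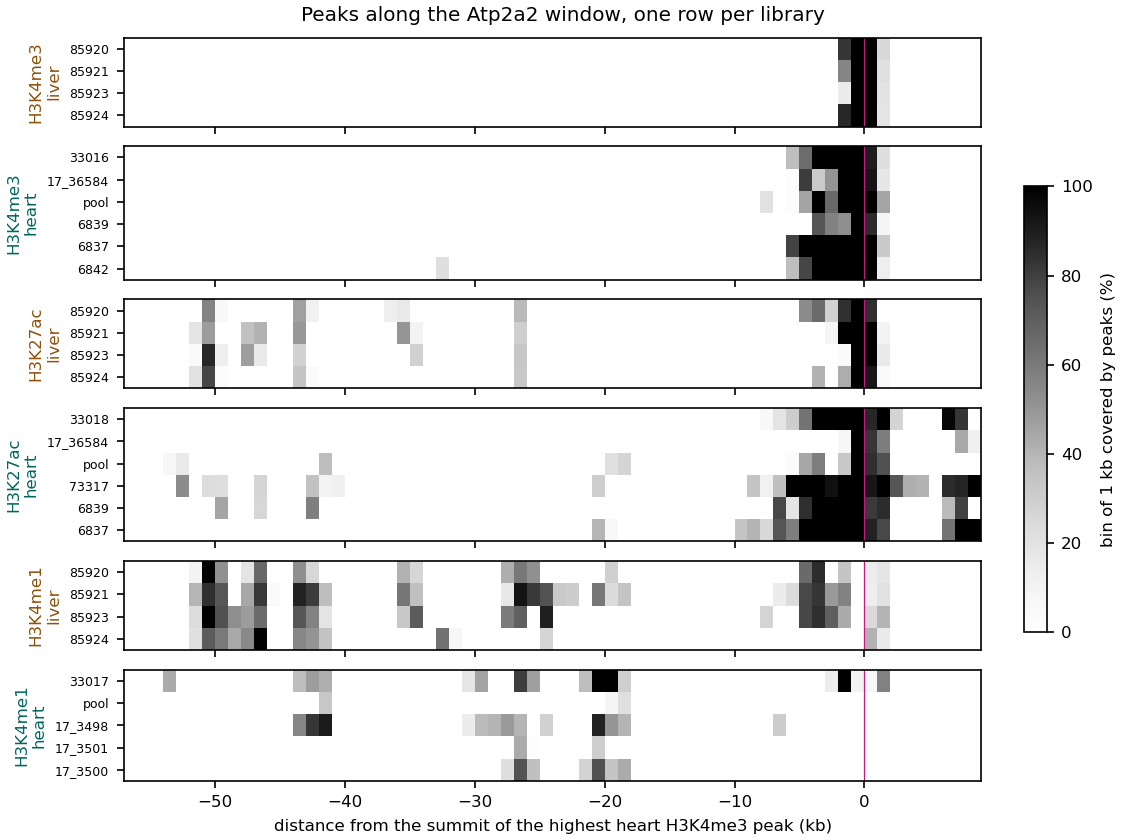
Peaks along the Atp2a2 window in bins of 1 kb, drawn as for Cacna1c, with distance from the summit in kb. H3K4me3 and H3K27ac at 0 kb are present in both tissues and extend farther to the left in most hearts, and liver H3K4me1 is present around −50 kb where heart has little.

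H3K27ac covered 9.31%, 9.26%, 7.38% and 6.94% of the Atp2a2 window in the livers, in that order, and 4.51% to 21.9% in heart with a median of 14.7%. The groups overlapped, since mouse 17_36584 at 4.51% was below every liver and the pool at 7.82% was among them. The difference of 5.23 points, 13.4% ± 6.33 (SD, n = 6) against 8.22% ± 1.24 (SD, n = 4), had an adjusted p of 0.225 in the exact permutation test, and 19.4% of windows of this width passed with heart higher. In a window wider by 50 kb on each side the difference was 12.2 points and passed with an adjusted p of 0.0175 by the exact test. The share of windows of that larger width that passed was not counted. On its higher-coordinate side those 50 kb were covered to 34.2% to 57.6% in heart and 18.3% to 22.1% in liver, and other genes may lie there.

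At the Atp2a2 H3K4me3 site all libraries had H3K27ac, and the fold did not overlap. It was 15.0 to 29.8 in heart, with a median of 23.1, and 39.8, 42.9, 60.7 and 59.3 in livers 85920, 85921, 85923 and 85924. The covered bases did overlap, at 2350 to 7105 in heart and 2208 to 4168 in liver. Of the 21 H3K27ac regions in this window, 1 was in every heart and no liver, chr5:122507931-122512877 at the upper edge, its fold averaging 14.9 ± 5.81 (SD, n = 6). The opposite pattern was held by 1 region, chr5:122475330-122475777, with a mean fold of 4.33 ± 1.41 (SD, n = 4) in liver. With only peaks of a −log10 q of at least 4, 1 region still held the first pattern and 0 the opposite one. Across the genome 3.74% of regions had the first pattern and 7.09% the second.

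H3K4me1 was the mark in which liver had more at Atp2a2. It covered 12.3%, 21.9%, 18.6% and 9.94% of the window in the 4 livers, against 12.6%, 10.0%, 1.15% and 4.80% in hearts 33017, 17_3498, 17_3501 and 17_3500 and 0.980% in the pool. The groups overlapped through mouse 33017 and mouse 17_3498. Heart minus liver was −9.75 points, 5.91% ± 5.23 (SD, n = 5) against 15.7% ± 5.50 (SD, n = 4), with an adjusted p of 0.221 in the exact permutation test. None of the 25141 windows passed and 6525 had an unadjusted p under 0.05. With limma 5.19% were called higher and 13.9% lower in heart, and this window had an adjusted p of 0.0664. Without the pool limma called 16.3% higher and 15.8% lower, this window among the latter (adjusted p 0.0390). The difference in coverage was then −8.52 points (adjusted p 0.302, exact permutation test), and within the first series of library names −8.87 points (exact permutation p 0.267). As covered bases per megabase of the list's own peaks, heart was lower by 85.4, with an adjusted p of 0.0458 by the exact test. How many other windows passed on that scale was not counted, so this call does not set the window apart. With equal numbers of peaks per list the difference was −4.63 points (adjusted p 0.0765, exact test), and in a window wider by 50 kb on each side −3.11 points (adjusted p 0.642, exact test).

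The liver H3K4me1 at Atp2a2 lay in part where heart had none. The regions chr5:122450512-122452683 and chr5:122454300-122455954 had a peak in 4 of 4 livers and 0 of 5 hearts, with mean folds of 7.79 ± 1.88 and 5.96 ± 1.67 (SD, n = 4). They were 2 of the 19 H3K4me1 regions in the window, beside 5.70% of the genome's regions in every liver and no heart. The reverse did not occur in this window. The region chr5:122480475-122483346 had a peak in all 5 hearts, with a mean fold of 5.53 ± 0.915 (SD, n = 5), and in 2 of 4 livers. From −50 to −40 kb from the summit the mark covered 21.6% to 41.1% in liver, with a median of 39.5%, and 0 to 22.9% in heart, with a median of 3.30% (6.38% without the pool). In liver, 61.0% of the bases with H3K27ac in at least 2 libraries also had H3K4me1, and in heart 4.06%. These 2 shares are not like for like. The 2 marks came from the same 4 mice in liver, but in heart only the pool gave both. H3K4me1 in at least 2 libraries also covered fewer bases of this window in heart, 4930 against 11772 in liver.

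Of the 23 H3K4me3 regions in the 3 windows, the 5 with a peak in every heart were taken as sites. Heart H3K4me3 at them is thus fixed by the choice, and a site of liver alone could not enter. Sites are named by their window and can belong to a neighbouring gene. In liver, 2 of the 5 had no H3K4me3, the Ryr2 site and the Cacna1c site at chr6:119193934-119196526. The remaining 3 had it in 4 of 4 livers. H3K27ac was in every heart at all 5 and in liver only at the Atp2a2 site and at the Cacna1c site chr6:119174823-119176363, in 4 of 4 livers at each. H3K4me1 was in 4 of 4 livers at the Ryr2 site, the Atp2a2 site and the Cacna1c site chr6:119106642-119109392, in 2 of 4 at chr6:119174823-119176363 and in none at chr6:119193934-119196526, where no heart had it either. So the sites without liver H3K27ac did not share one liver state in H3K4me1.

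**Figure D5:**
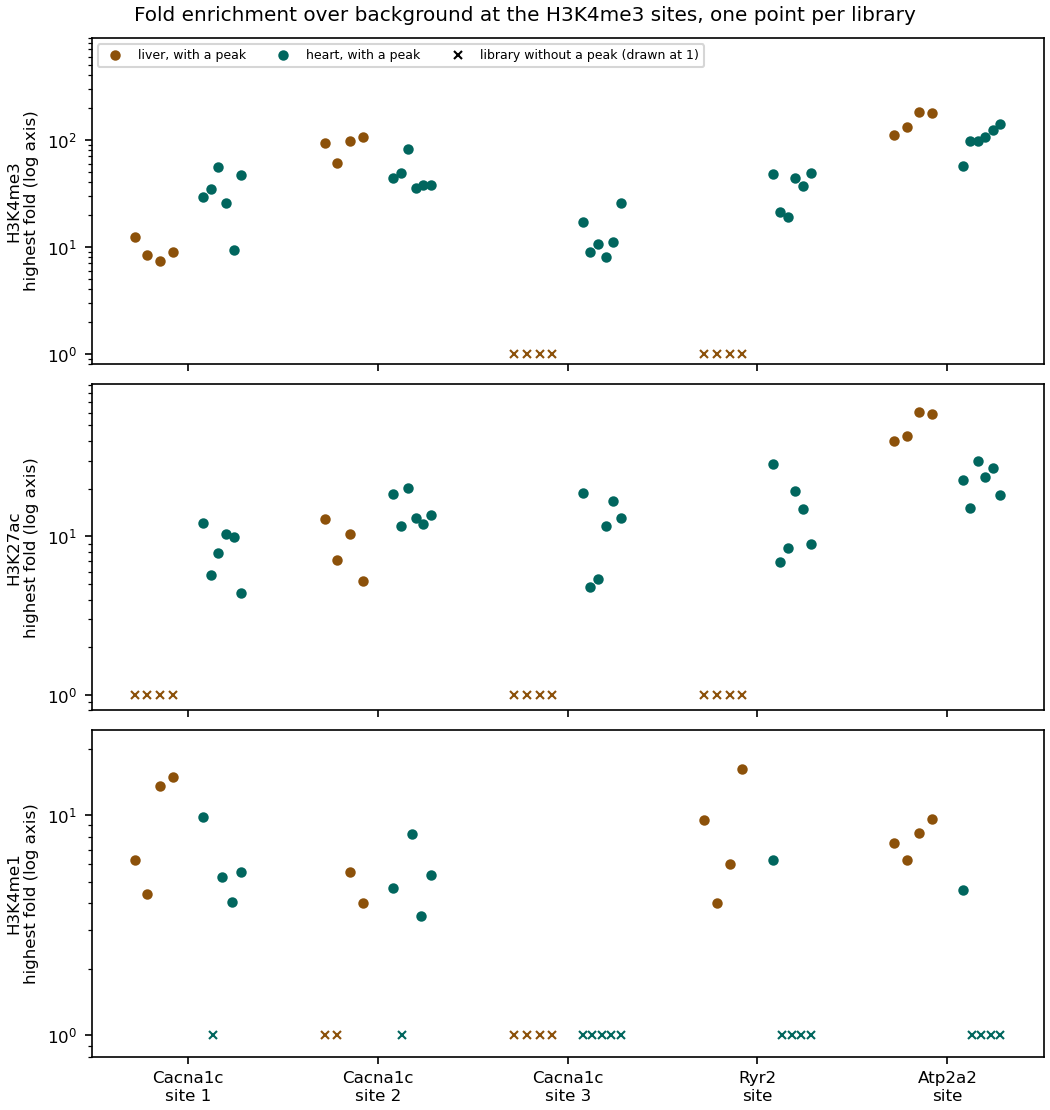
Fold of the highest peak at the 5 H3K4me3 sites in each library (log axis), liver and heart side by side for the 3 marks, with libraries that had no peak drawn as crosses at 1. Cacna1c sites 1, 2 and 3 are in order of coordinate, and the crosses show the 2 sites where no liver had H3K4me3 and the 3 where no liver had H3K27ac.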

How the data were processed

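ChIP-seq peak lists of mouse liver and heart, 29 in all, were used as deposited. Peaks were called per library with MACS2, per the submitters' processing notes, on GRCm38, per the file names. Neither the aligner nor any version is named in these sources. The deposited fold is the authors' linear ratio over background for each peak. The deposited −log10 q-value was at least 1.3 in every list, and is the authors' filter. Replicates were single mice, and 1 pool of 3 mice counted as 1.

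Overlapping peaks of a library were merged, and the covered percentage of each window was compared as described above over windows tiling 21 chromosomes that held a peak in at least 1 library. Covered bases plus 1000, on the log2 scale, were also tested with limma 3.58.1 in R 4.3.3. The exact test was checked on simulated H3K27ac windows with the same spread in both tissues. The real groups differ in spread, so that check does not cover them, and limma was not checked this way. Python 3.11.15, NumPy 2.4.6, pandas 2.3.3, SciPy 1.17.1 and Matplotlib 3.10.9 were used. Regions of a window were named when they were in every library of one tissue and none of the other, or at a heart H3K4me3 site, and a few regions shared by the tissues were chosen after their values were seen. Gene symbols were paired with Ensembl identifiers from a supplied table. The members, lists and tests were chosen with earlier results of these data known. A wider list of calcium handling genes, marker genes of each tissue, genes of similar pattern, exons, introns and sequences needed an annotation of GRCm38 and were not analysed here, so the tissue labels were not checked against marker genes. Read depth is unknown, so no interval that needs it is given.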

Additional observations from a re-analysis of the deposited data

Results flagged for a closer look

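In H3K4me3 over the Cacna1c window, liver 85924 was covered to 0.551%, whereas the other 3 livers lay between 0.286% and 0.329%. The gap to the nearest liver was 0.838 of the group's range, past the limit used for 4 samples. The list of this liver had 4 peaks in the window and the others 2 or 3. Of 16 groups examined this way 1 was picked out, and chance picks out about 1 in 20. Without this liver the heart against liver difference was 0.622 points, against 0.561 with it, the largest move of the 10 single omissions in that comparison.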

How the results depend on the processing

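No paired analysis was possible because no mouse gave both tissues. None of the 9 comparisons changed direction under any alternative run. With limma on log2(covered bases + 1000), the log2 differences of 2.01 (Ryr2, H3K4me3), 0.79 (Atp2a2, H3K4me3), 1.06 (Cacna1c, H3K4me3), 3.33 (Cacna1c, H3K27ac), 3.40 (Ryr2, H3K4me1) and 2.97 (Cacna1c, H3K4me1) passed where the exact test had not. With the pool left out as well, chosen after seeing the data, the H3K4me1 values were 4.47 (Ryr2), −1.19 (Atp2a2) and 4.17 (Cacna1c), all past the threshold. With all libraries the median over all windows of the width of Ryr2 and Cacna1c in H3K4me1 was −0.37 and −0.39 on that scale. H3K27ac at Ryr2 missed the threshold with the number of peaks (8.67), and on 7 of 10 single omissions, while the difference ran from 0.849 to 1.25 points over all 10. Leaving out a liver did not move that difference, as every liver was 0 there. The call held under the other 5 settings, limma among them. In the window wider by 50 kb on each side H3K27ac at Atp2a2 passed (12.2 points), while its H3K4me3 difference fell to 2.16 points and its H3K4me1 difference to −3.11. H3K27ac at Cacna1c passed with equal numbers of peaks per list (3.64 points) and per megabase covered (451.8), and leaving out mouse 17_36584, the pool or mouse 73317 let it pass (3.34 to 5.28 points over all omissions). H3K4me1 at Atp2a2 passed per megabase covered (−85.4). Except for limma, the share of all windows that passed was not counted under these alternatives.

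Other omissions moved no call, with 0.490 to 0.594 (Ryr2), 3.97 to 5.00 (Atp2a2) and 0.514 to 0.622 points (Cacna1c) in H3K4me3, 3.54 to 7.01 points in H3K27ac at Atp2a2, and 4.81 to 7.42 (Ryr2), −11.7 to −7.68 (Atp2a2) and 14.9 to 21.6 points (Cacna1c) in H3K4me1. With the number of peaks of the shortest list, the pool, H3K4me1 differences shrank to 0.696 points (Ryr2), −4.63 (Atp2a2) and 4.51 (Cacna1c). Leaving out both the pool and mouse 33017, chosen after seeing the data, gave 7.23, −10.3 and 20.2 points. Regions with H3K4me1 in every heart and no liver in the Cacna1c window were 2, and 1 at a −log10 q of at least 4. Without the pool, also chosen after seeing the data, they were 45 there and 12 at Ryr2. The cause of these changes was not tested. The alternatives meant for the gene lists were not run. The exact test on 4 against 5 or 6 libraries leaves little room below its threshold, and the unknown depth limits every count of peaks.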
